A study of Mus musculus with 20 samples.

Results

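The 16 libraries cut by laser microdissection from the mouse renal cortex were compared, as 1 side, with 4 libraries of whole kidney. The 16 are 4 libraries of each of 4 compartments (arterioles, glomeruli, post-capillary venules and peritubular capillaries), and with whole kidney they make up all 20 libraries. The libraries were grouped by their labels and not by a measured value. The comparison was chosen with earlier results of these data known. The 4 compartments were weighted equally, so the average below is the mean of the 4 compartment log2 fold changes against whole kidney. All 5 groups came from kidneys of healthy, young adult, male WT C57BL6/OlaHsd mice, and every sample is a control. Arterioles, glomeruli and venules were recognised by shape under hematoxylin, and peritubular capillaries by fluorescent isolectin B4, a lectin that labels endothelium. A capture is a piece of tissue and not a sorted cell population, and a smaller area was taken for arterioles and capillaries. Microdissected RNA went through the low-input form of the 3′ library kit with a fixed input volume and more PCR cycles, and whole kidney RNA did not. Tissue and preparation therefore cannot be told apart in any comparison with whole kidney.

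Whole kidney holds the cortex together with the medulla, the papilla and the renal pelvis, and a section can carry fat from outside the capsule. The last proximal tubule segment (S3) runs down into the outer medulla, the thick ascending limb climbs from the medulla back into the cortex, the thin limbs and the inner collecting ducts lie in the medulla, and urothelium lines the pelvis. Endothelium lines every vessel, smooth muscle wraps arterioles, and podocytes and mesangial cells belong to the glomerulus.

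Library totals ran from 4639090 to 12283098 counts. The labels call the 4 libraries of a group biological replicates without naming the mice. By the study's methods several compartments were cut from each mouse, so the 16 captured libraries are not 16 independent animals, and every p-value over them below may be too small. Vessel markers were above whole kidney in 3 of the 4 compartments. The smooth muscle and mural list took 3.31% ± 0.697 of the counts in arterioles against 0.0792% ± 0.00552 in whole kidney, and the podocyte list 1.42% ± 0.0919 in glomeruli against 0.0506% ± 0.00225 (SD, n = 4 each). The pan-endothelial share was 0.615% ± 0.0458 for glomeruli, 0.589% ± 0.0759 for arterioles and 0.198% ± 0.0428 for venules, compared with 0.0892% ± 0.00328 for whole kidney. In peritubular capillary libraries it took 0.106% ± 0.0322, between 0.0712% and 0.144%, which overlaps whole kidney (0.0852% to 0.0927%). These capillary libraries also held more proximal tubule transcripts than whole kidney, with 2.20% ± 0.214 of counts on the S1 and S2 list against 1.28% ± 0.0993. In bulk samples, fewer cells of a type and less RNA per cell cannot be told apart.

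In the average of the 4 compartments, 161 genes (1.17% of the 13813 tested) were higher than whole kidney and 424 (3.07%) were lower. A gene was called at a Benjamini-Hochberg adjusted p (FDR) under 0.05 in edgeR's quasi-likelihood test over all genes and an average log2 fold change above 1 or below -1. Far fewer genes moved alike in all 4 compartments: 13 higher (0.0941%) and 94 lower (0.681%). Alike means called in the average, past 1 in the same direction in each compartment, and with all 16 libraries on the same side of all 4 whole kidney libraries. Among 3 compartments without the capillaries, 114 genes were alike higher and 231 alike lower. The balance of higher and lower depended on the model: 16 libraries against 4 without compartments gave 2 and 59, sums per library number 1307 and 507, limma-voom with weights by group 552 and 5490, and the library number as a replicate block 157 and 706. Scaled by library totals in place of TMM, 116 genes were higher and 565 lower, and 3 and 107 were alike. With no test at all, 44 genes (0.319%) had all 16 libraries above whole kidney and 98 (0.709%) all 16 below. Leaving out any 1 whole kidney library moved the counts of higher and lower genes on the same tested genes by over 1.5 times: 68 and 233 without whole kidney 93, 81 and 241 without 96, 74 and 223 without 98, and 75 and 225 without 100. The 13 alike higher genes fell to between 7 and 9 without any 1 whole kidney library on these genes, and to between 4 and 9 with the filter run again. Leaving out any 1 microdissected library gave 147 to 188 higher and 426 to 499 lower on the same genes. With the filter run again it gave 599 to 670 lower and 158 to 194 alike lower, over more genes tested (14249 to 14437).

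Most called genes were unequal among the compartments. Of the 161 higher genes, 142 also differed among the 4 compartments (25.8% of all tested genes did, by the 3-degree test among compartments at FDR under 0.05), and 38 had the opposite sign in at least 1 compartment. All 161 were past 1 in arterioles, 144 in glomeruli, 122 in venules and 51 in peritubular capillaries. Of the 424 lower genes, 290 differed among compartments, 157 had the opposite sign in at least 1, and 172 were past -1 in all 4. On its own, arteriole against whole kidney gave 798 higher (5.78%) and 760 lower (5.5%) genes, and glomerulus 219 (1.59%) and 203 (1.47%). Capillary gave 12 (0.0869%) and 1 (0.00724%), and venule 28 (0.203%) and 3 (0.0217%). The 4 comparisons share the same whole kidney libraries.

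**Figure D1:**
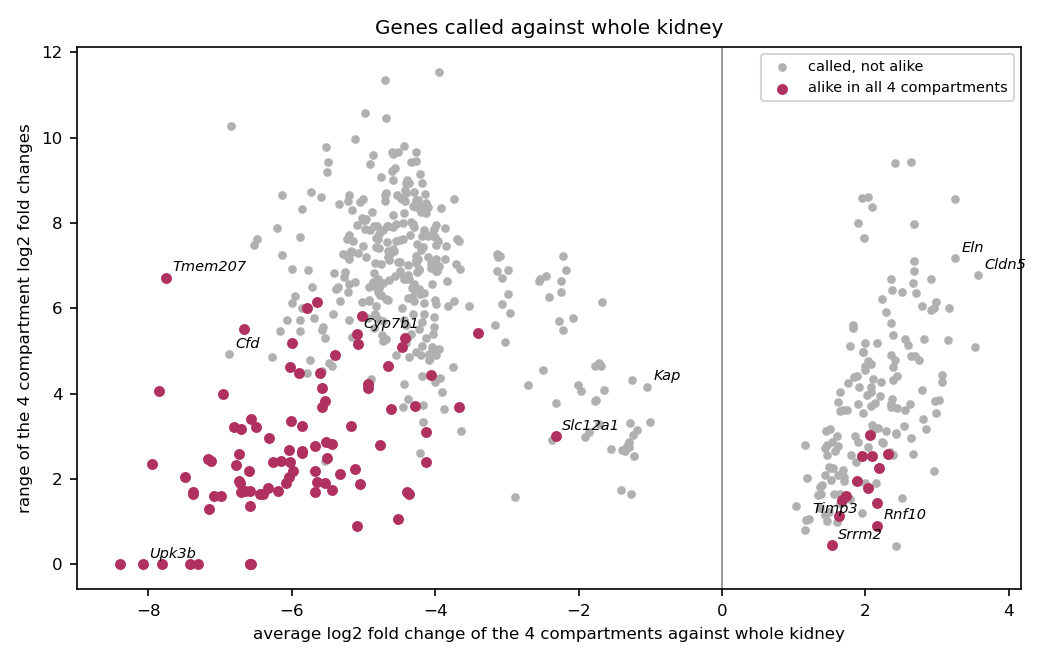
Each point is a gene called against whole kidney, with the average log2 fold change of the 4 compartments on the x axis and the range between the highest and lowest compartment log2 fold change on the y axis. Genes alike in all 4 compartments are in red. Srrm2 (range 0.45) and Rnf10 (0.91) lie lowest among the alike genes on the higher side. The points at a range of 0 are the 8 genes without a count in any of the 16 libraries, whose fitted value depends on the prior count.

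The 13 genes higher in every compartment were Tmbim1, Adam15, Rnf10, Zeb2, Col4a2, Palld, Septin11, Coro1c, Zbtb4, Tnfrsf1a, Cx3cl1, Foxn3 and Srrm2. All were protein coding, with a median whole kidney level of 57.5 CPM (read counts scaled to a common, TMM-adjusted library size). Their average log2 fold changes ran from 1.53 to 2.32, and the range among compartments from 0.449 to 3.04 (median 1.78). Only 5 of the 13 did not pass the test for a difference among compartments, and in 12 the arteriole value was the highest of the 4.

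Srrm2, a scaffold protein of the spliceosome and of nuclear speckles (chromosome 17, 23790532 to 23824741, GRCm38), had the smallest spread. Its level was 291, 328, 337 and 364 CPM in whole kidney 93, 96, 98 and 100, and 697 CPM at the lowest, 829 at the median and 1791 at the highest of the 16 captured libraries. Every captured library lay above every whole kidney library, which the alike rule requires. The log2 fold changes of arterioles, glomeruli, capillaries and venules were 1.74, 1.40, 1.70 and 1.29, with an average of 1.53 ± 0.30 (SE, FDR 0.00103), and no difference among them was detected (FDR 0.622). Rnf10, a RING finger protein (chromosome 5, 115241412 to 115272898), stood at 41.0, 46.9, 43.2 and 32.6 CPM in whole kidney and between 72.3 and 447 CPM (median 149) in the captures. Its log2 fold changes were 2.80, 1.89, 1.97 and 2.00 (average 2.16 ± 0.49, FDR 0.00644, among compartments 0.411), and the call ended without whole kidney 100 (FDR 0.0508).

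Transcription factors and repressors formed a small part of the alike genes. Zeb2, a zinc finger repressor that acts in mesenchymal, mesangial and endothelial cells (chromosome 2, 44983632 to 45117395), stood at 51.2, 52.3, 51.0 and 54.5 CPM in whole kidney. In the captures it ran from 83.9 to 595 CPM with a median of 232. The average was 2.16 ± 0.45 (FDR 0.0023), the compartments gave 2.85, 2.25, 1.42 and 2.13, and no difference among them was detected (FDR 0.129). Foxn3, a forkhead repressor, ran from 175 to 924 CPM against 86.6 to 118 in whole kidney (average 1.63 ± 0.40, FDR 0.0109), a call that ended without whole kidney 93 (FDR 0.0626) or 100 (0.0517). Zbtb4, which binds methylated DNA, ran from 67.9 to 700 CPM against 40.5 to 47.0 (average 1.88 ± 0.49, FDR 0.0185), and lost its call without any 1 whole kidney library (FDR up to 0.0897).

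Another 4 of the alike genes encode proteins of the cytoskeleton or the basement membrane. Palld, the actin bundling protein palladin (chromosome 8, 61511433 to 61902690), stood at 88.3, 87.0, 73.5 and 72.2 CPM in whole kidney and between 96.6 and 2813 CPM (median 231) in the captures. The lowest captured library lay just above the highest whole kidney library. Its compartment log2 fold changes were 4.07, 1.93, 1.04 and 1.24, with an average of 2.07 ± 0.39 (FDR 0.000858) and a difference among compartments (FDR 6.66e-07). Coro1c, a coronin of the actin cortex, gave 3.84, 1.29, 1.31 and 1.36 (average 1.95 ± 0.40, FDR 0.00196), and Col4a2, a chain of basement membrane collagen IV, gave 3.70, 1.95, 1.55 and 1.16 (average 2.09 ± 0.45, FDR 0.00316). Septin11, a filament forming GTPase, gave 2.59 in arterioles and 2.86 in glomeruli (average 2.03 ± 0.47, FDR 0.00753).

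The remaining alike genes encode membrane proteins. Cx3cl1, the membrane bound chemokine fractalkine (chromosome 8, 94772009 to 94782427), stood at 70.2, 58.6, 53.0 and 48.1 CPM in whole kidney and between 94.0 and 635 CPM (median 161) in the captures. Its average was 1.68 ± 0.44 (FDR 0.0186), with 2.77 in arterioles and 1.37, 1.29 and 1.27 in the others. Tnfrsf1a, the tumour necrosis factor receptor 1, ran from 48.7 to 307 CPM against 29.7 to 47.4 (average 1.73 ± 0.52, FDR 0.0456). Adam15, a membrane metalloprotease of vessels, ran from 44.6 to 598 against 18.6 to 28.7 (2.19 ± 0.55, FDR 0.014), and Tmbim1, a transmembrane protein of endosomes and lysosomes, from 30.5 to 750 against 15.2 to 23.2 (2.32 ± 0.63, FDR 0.0232). The calls of these 4 genes ended without any 1 whole kidney library, with FDR up to 0.114, 0.192, 0.0862 and 0.106, and Tnfrsf1a also lost its call without glomerulus 98 or venule 98.

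**Figure D2:**
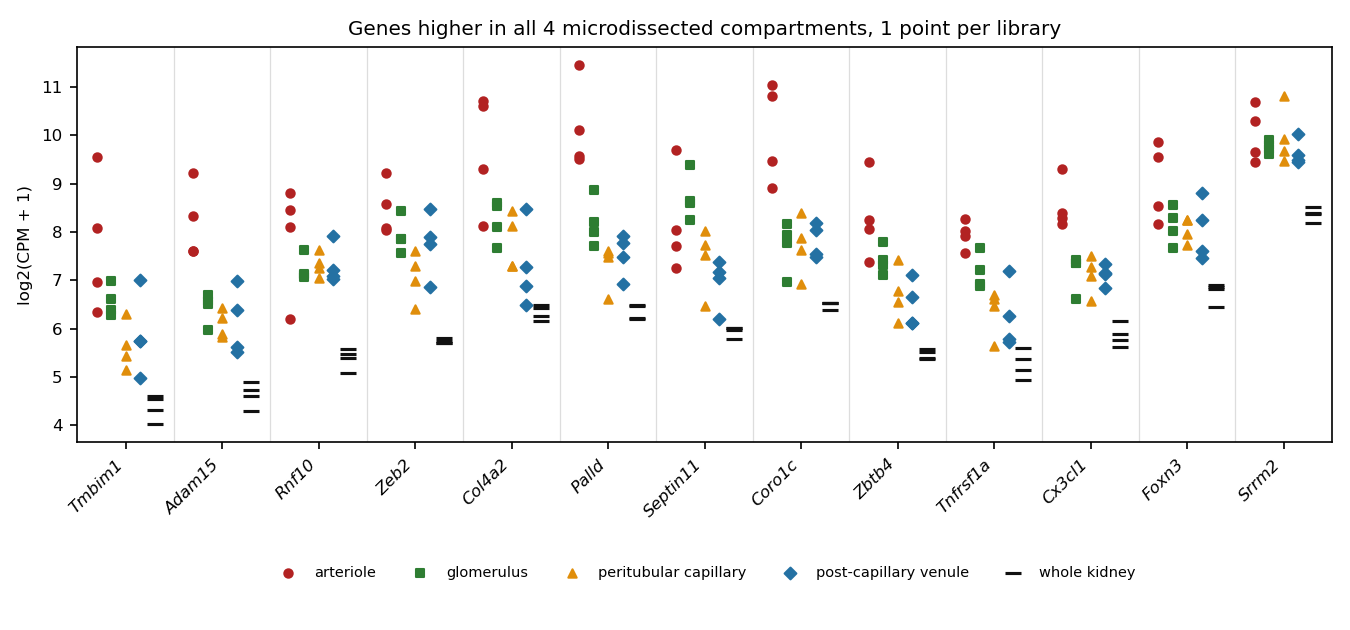
Level of higher genes on a log2(CPM + 1) scale, 1 point per library, with the 4 compartments as coloured symbols and whole kidney as black dashes. For Srrm2 the 4 compartments sit at nearly the same height above whole kidney, whereas for Palld and Coro1c the arteriole points stand far above the rest.

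Vessel and glomerular cell markers were higher on average but none was alike in all 4 compartments. Of 23 pan-endothelial genes tested, 8 were higher and 0 lower, with a median average log2 fold change of 1.93 against -0.02 for all genes tested. The median was 4.01 in arterioles, 2.51 in glomeruli, 0.83 in capillaries and 1.37 in venules. Examples were Pecam1, an adhesion molecule (2.04, FDR 0.00249), Ptprb, a phosphatase acting on the Tie2 receptor (2.62, FDR 0.000719), and Cldn5, the tight junction claudin of endothelium (3.57). Flt1, a receptor for vascular endothelial growth factor, was the only list member with all 16 captured libraries above all 4 of whole kidney. It stood at 73.1, 104, 92.2 and 113 CPM in whole kidney and between 128 and 504 CPM (median 245) in the captures. Its average was 1.44 ± 0.40 (FDR 0.0259), and the compartments gave 1.59, 2.00, 0.83 and 1.35, so capillaries fell short of the threshold of 1. Cdh5, the VE-cadherin gene, was not called (1.23, FDR 0.586).

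Smooth muscle and mural genes had the largest arteriole values. Of 17 tested, 11 were higher and 0 lower (median 2.35; arterioles 5.82, glomeruli 2.15, capillaries 0.15, venules 1.83), and 16 differed among compartments. Myl9, a myosin light chain (average 2.91 ± 0.30, FDR 1.18e-07), gave 6.83, 2.83, 0.15 and 1.83. Acta2, smooth muscle actin, averaged 1.90 with 6.70 in arterioles and -1.31 in capillaries. Its 12 arteriole, glomerulus and venule libraries lay above whole kidney and its 4 capillary libraries below. Of 15 podocyte genes, Podxl, Synpo and Thsd7a were higher, Thsd7a only with all 4 whole kidney libraries and with glomerulus 100 (FDR up to 0.177 without them). Podxl, the podocalyxin of the podocyte surface that endothelium also carries, gave 3.49, 5.34, 0.46 and 1.47, and the list medians were -1.94, 5.0, -0.54 and 0.05, so the glomerulus value sets the average of 0.86. Of 14 fibroblast genes, 1 was higher (Col1a1, 1.96, FDR 0.0186, lost without any 1 whole kidney library, FDR up to 0.0761), and of 16 leukocyte genes also 1 (Lyz2, lysozyme of macrophages and monocytes, 1.95, FDR 0.0365, lost likewise, FDR up to 0.142).

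Among 7 erythrocyte genes tested, the 4 globin genes were higher, and 1 of the 7 averages was negative. Bulk counts do not show where in the tissue this RNA lay. Hba-a1, an alpha globin, gave 3.47 in arterioles, 2.11 in glomeruli, -0.69 in capillaries and 3.42 in venules (average 2.08, FDR 0.000248). The share of counts on the list was 3.34% ± 1.30 for venules, 2.42% ± 1.29 for arterioles and 1.56% ± 0.150 for glomeruli, while whole kidney had 0.358% ± 0.0911 and capillaries 0.118% ± 0.0459 (SD, n = 4 each). The near-identical alpha globin copies share reads, so their split is uncertain.

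Several genes outside the lists were called without being alike. Bgn, the proteoglycan biglycan, stood at 132, 157, 123 and 143 CPM in whole kidney and between 178 and 5028 CPM (median 557) in the captures. No captured library overlapped whole kidney, and the compartments gave 4.47, 2.02, 0.71 and 2.19 (average 2.35 ± 0.33, FDR 2.09e-05). Timp3, an inhibitor of matrix metalloproteases, likewise had all 16 libraries above (1872 to 5594 CPM against 1195 to 1452; average 1.17 ± 0.21, FDR 0.000368), with its highest value in capillaries (1.31, 0.69, 1.74 and 0.96). Flna, an actin crosslinker (2.7), Mgp, the matrix Gla protein (1.97), Sparc (2.24), Ltbp4 (3.15) and Timp2 (2.80) passed with FDR between 1.79e-06 and 4.53e-05. Mgp shows how unequal such an average can be, with 4.91, 0.16, -0.08 and 2.89.

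Genes lower in every compartment were of another kind. Of the 94, 67 were protein coding, 29 carry only a predicted name or belong to pseudogenes, and the median whole kidney level was 2.69 CPM. Counts were missing from at least 8 of the 16 captured libraries for 87 of them, and from all 16 for 8. In whole kidney, 10 had a mean of at least 10 CPM, and 7 had at least 10 CPM in all 4 libraries. Those 7 were Cyp7b1, Slc22a13, Aqp7, Irx1, Mettl7a2, Slc12a1 and the predicted gene 9630013D21Rik.

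The tubule genes among them come from the S3 segment and the thick ascending limb. Cyp7b1, an oxysterol hydroxylase of the S3 segment in male mice (chromosome 3, 18071950 to 18243338), stood at 199, 176, 167 and 165 CPM in whole kidney. In the captures the lowest library held 0.213 CPM, the median 1.40 and the highest 105. All 16 lay below whole kidney, which the alike rule requires, and capillary 98 alone held 51.8% of the summed CPM. The average was -5.09 ± 0.77 (FDR 6.08e-05), with -7.49 in arterioles, -5.20 in glomeruli, -2.10 in capillaries and -5.57 in venules. Slc22a13, an organic anion transporter, stood at 73.6, 99.4, 75.5 and 75.7 CPM in whole kidney and between 0.468 and 53.8 CPM (median 1.36) in the captures, with an average of -4.05 ± 0.92 (FDR 0.00585).

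Slc12a1, the sodium, potassium and chloride cotransporter that defines the thick ascending limb (chromosome 2, 125152505 to 125230002), was the most abundant of them. It stood at 394, 576, 472 and 427 CPM in whole kidney and at 3.20 CPM at the lowest, 105 at the median and 299 at the highest of the captures. By the alike rule, no captured library reached whole kidney. The average was -2.32 ± 0.52 (FDR 0.0047), and the compartments gave -4.22, -2.21, -1.21 and -1.65, with a difference among them (FDR 0.0282). Irx1, a homeobox factor of the nephron's intermediate segment, ran from 0 to 26.3 CPM against 41.8 to 58.5 in whole kidney (-3.66 ± 1.07, FDR 0.0406). Aqp7, the glycerol channel of the straight proximal tubule, ran from 0 to 5.37 against 13.2 to 16.9 (-4.28 ± 1.23, FDR 0.0358), and Mettl7a2, a methyltransferase-like protein, from 0.200 to 67.5 against 74.2 to 90.4 (-3.40 ± 0.92, FDR 0.0224). The calls of Irx1, Aqp7 and Mettl7a2 ended without any 1 whole kidney library, with FDR up to 0.125, 0.104 and 0.0791.

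**Figure D3:**
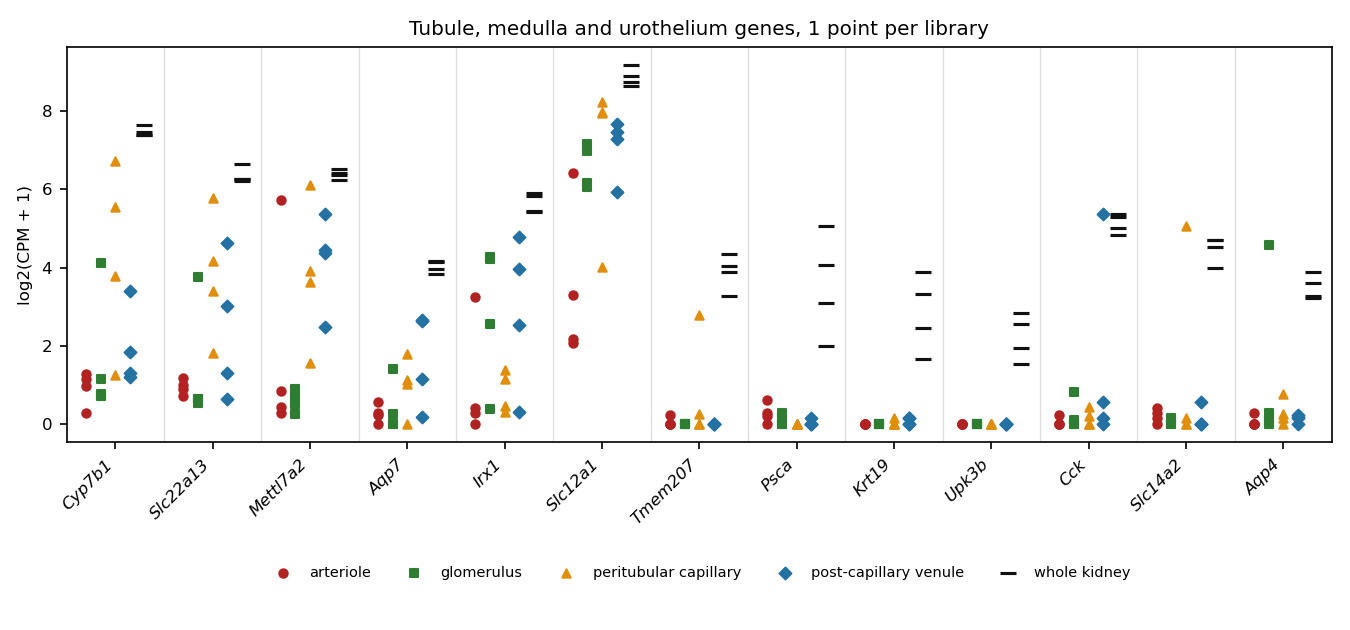
Level of lower genes on a log2(CPM + 1) scale, 1 point per library, with the 4 compartments as coloured symbols and whole kidney as black dashes. Slc12a1 is present in every capture at a reduced level, Krt19 and Upk3b are at or near 0, and for Cck, Slc14a2 and Aqp4 a single captured library reaches or passes the whole kidney level while the others stay near 0.

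The tubule lists are given by segment, beside 3.07% lower genes over all tested. Of 12 S3 genes, 6 were lower and all 12 averages were negative (median -2.24; arterioles -2.41, glomeruli -4.44, capillaries -0.13, venules -1.58). Slc7a13, the S3 aspartate and cystine transporter, ran from 8.71 to 1081 CPM (median 134) against 782, 970, 1130 and 944 in whole kidney. Its average was -2.50 ± 0.34 (FDR 8.28e-06), but capillaries gave -0.14, and their libraries overlapped whole kidney. Of 14 thick ascending limb genes, 5 were lower and all 14 averages were negative (median -1.69). The list took 0.162% of counts against 0.397%, with all 16 libraries below whole kidney. The exact two-sided permutation p was 0.0286, the smallest this design allows (4 means over the compartments, 1 per library number, against 4 whole kidney libraries). Adjusted over 50 measures it was 0.0348, and most of those measures gave the same smallest p. Umod, the urinary glycoprotein uromodulin, averaged -1.30 ± 0.26 (FDR 0.00155), with -2.71, -1.70, 0.05 and -0.84.

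Genes of the first proximal tubule segments split by compartment. Of 20 S1 and S2 genes, 4 were lower and 18 differed among compartments, with list medians of -1.96 in arterioles, -1.55 in glomeruli, 1.06 in capillaries and 0.25 in venules. Cubn, the endocytic receptor cubilin, gave -5.98, -4.49, 0.67 and -0.38 (average -2.55, FDR 0.0188), and Slc22a6, an organic anion transporter, -2.22, -3.17, 1.16 and -0.82 (average -1.26, FDR 0.0403). Both calls were lost without a whole kidney library: Cubn without 93, 98 or 100 (FDR up to 0.0838) and Slc22a6 without any of the 4 (up to 0.128). Kap, the androgen regulated kidney protein of the proximal tubule, stood at 27837, 28692, 29715 and 28772 CPM in whole kidney and between 2847 and 93762 CPM (median 13943) in the captures. It was below whole kidney in 12 libraries and above it in the 4 of capillaries, with -1.88, -2.86, 1.31 and -0.75 (average -1.04 ± 0.14, FDR 5.49e-06).

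For 3 genes of the medulla or of no list, nearly all captured counts came from a single library. Slc14a2, the urea transporter of the thin limb and inner collecting duct, stood at 14.8, 25, 24.9 and 22.1 CPM in whole kidney. Its median was 0.0501 CPM over the captures and its second highest value 0.486, but capillary 98 held 32.1 CPM, 95.6% of the summed CPM. It was called lower (-6.00 ± 1.33, FDR 0.0047) without being alike. Aqp4, a water channel of the inner collecting duct's principal cells, followed the same pattern, with 22.7 CPM in glomerulus 93 (92.0% of the sum), at most 0.700 in the other libraries, and 8.30 to 13.9 in whole kidney (-4.92 ± 1.28, FDR 0.0183). That call ended without whole kidney 98 (FDR 0.0678) or 100 (0.0574). Cck, the gene of the peptide cholecystokinin, held 40.4 CPM in venule 98 and at most 0.772 in the 15 others, against 27.4 to 40.5 in whole kidney (-6.53 ± 1.31, FDR 0.00155).

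The list of thin limb genes, some of which other segments also use, took 0.0600% of captured counts against 0.107% in whole kidney and had 3 lower of 10 (median -1.94), namely Slc14a2, Slc4a11, a borate transporter homologue (-5.58, FDR 0.00411), and Sptssb, a subunit of sphingolipid synthesis (-4.69, FDR 0.0343, lost without whole kidney 93, 98 or 100, FDR up to 0.164). Of 15 principal cell genes, Aqp4 and Fxyd4, a sodium pump modulator of this segment, were lower (median -1.46; arterioles -1.86, glomeruli -1.59, capillaries -0.14, venules 0.26). Fxyd4 ran from 0.110 to 49.9 CPM against 41.4 to 49.0 in whole kidney (-3.73 ± 0.97, FDR 0.0175, lost without any 1 whole kidney library, FDR up to 0.0646). No gene of the distal convoluted and connecting tubule list (12 tested, median -0.31) or the intercalated cell list (16 tested, median -0.49) was called, which for lists of this size is close to the share over all genes. The distal list took 0.745% of captured counts against 0.509% in whole kidney (exact permutation p 0.0286, n = 4 each), with 8 captured libraries above and 7 below all 4 whole kidney libraries. Venules held 1.49% ± 0.215 and glomeruli 0.261% ± 0.00701, and without venules the difference turned to -0.0116 percentage points. The medullary osmotic response list, which shares 2 genes each with the thin limb and the heat shock list, also had no call (12 tested, median 0.15) and took 0.144% of captured counts against 0.114% (exact permutation p 0.429, n = 4 each). Its betaine transporter Slc6a12 was too sparse to be tested, with 0 counts in the 16 captures and 111 in whole kidney.

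The urothelium and renal pelvis list had the lowest median of all lists. Upk3b, a uroplakin of the urothelial surface, had no count in 16 libraries against 1.92, 2.88, 4.93 and 6.14 CPM in whole kidney (181 counts), which makes it at least 211-fold lower when 3 counts over the 16 libraries are taken as the floor. This bound covers counting error only. Krt19, a keratin of simple and transitional epithelia, had 3 counts against 340, a ratio of 396 (exact 95% interval 134 to 1931, counting error only), and Psca, a surface protein of urothelium, had 10 against 674 (-7.85 ± 1.30, FDR 0.000248). These 3 were alike. Upk1a and Upk3a were called lower but 1 library each held most of their CPM, capillary 98 with 72.2 CPM of Upk1a (98%) and venule 98 with 13.5 CPM of Upk3a (93%). Of 14 list genes 8 were tested and 5 were lower (median -6.27, also with genes at 0 placed at their bound). Sparse genes such as Upk3b, Krt19 and Psca passed the filter on low counts through whole kidney, where they are high. The count and the median therefore rest in part on members selected for that, and are no test of the list. Among those not tested, Upk2 had 2 counts against 138 and Trp63 0 against 25, whereas Krt5 had 392, all in arteriole 93, against 92. The list took 0.00251% of captured counts against 0.00948% in whole kidney (exact permutation p 0.171, n = 4 each), and the whole kidney libraries themselves ran from 0.00268% to 0.0211%.

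Some other genes were missing from all or most captures. Rhox6, a homeobox gene, Elfn1, a synaptic adhesion protein, and C1qtnf4, a complement C1q related secreted protein, had 0 counts in 16 libraries. With the same floor of 3 counts they were at least 164-fold, 138-fold and 117-fold lower, bounds that cover counting error only. Zeros in all 16 captures were also found for 61 of 2352 genes at 1 to 3 CPM in pooled whole kidney. At 3 to 10 CPM they were found for 7 of 3168. Tmem207, a membrane protein listed with the thick ascending limb, had 50 counts, of which capillary 93 held 94.1% of the CPM (5.97 CPM), and none in 13 libraries, against 8.71 to 19.5 CPM in whole kidney (-7.75 ± 1.39, FDR 0.000603). Fxyd3 had 1 count against 169 (ratio 591, interval 105 to 23476), and Tnn, the matrix protein tenascin-N, 2 against 193 (ratio 337, interval 92.1 to 2806). Both intervals cover counting error only.

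Fat cell genes were low in the captures but uneven in whole kidney. Cfd, the adipsin gene, stood at 25.4, 0.806, 112 and 210 CPM in whole kidney 93, 96, 98 and 100, and Adipoq, adiponectin, at 7.29, 0.230, 25.7 and 32.2. Whole kidney 96 was thus far below the other 3 for both. Cfd was called lower (-6.87 ± 1.05, FDR 7.52e-05) and arteriole 100 held 78.0% of its captured CPM, while Adipoq (-6.20 ± 1.37, FDR 0.00459) had 97.8% in capillary 98. Cidea, a lipid droplet protein of brown fat, had 1.42 and 0 CPM in whole kidney 93 and 96 and at least 63.8 CPM in 98 and 100, and Plin1, the lipid droplet coat perilipin, too sparse to be tested, had 28, 0, 504 and 401 counts there and 8 over the 16 captures. Of 10 list genes 7 were tested and 4 were lower, among them Pck1, a gluconeogenic enzyme that the proximal tubule also makes (-1.29, FDR 0.012, lost without whole kidney 93 or 96, FDR up to 0.0935). No fat gene was alike.

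**Figure D4:**
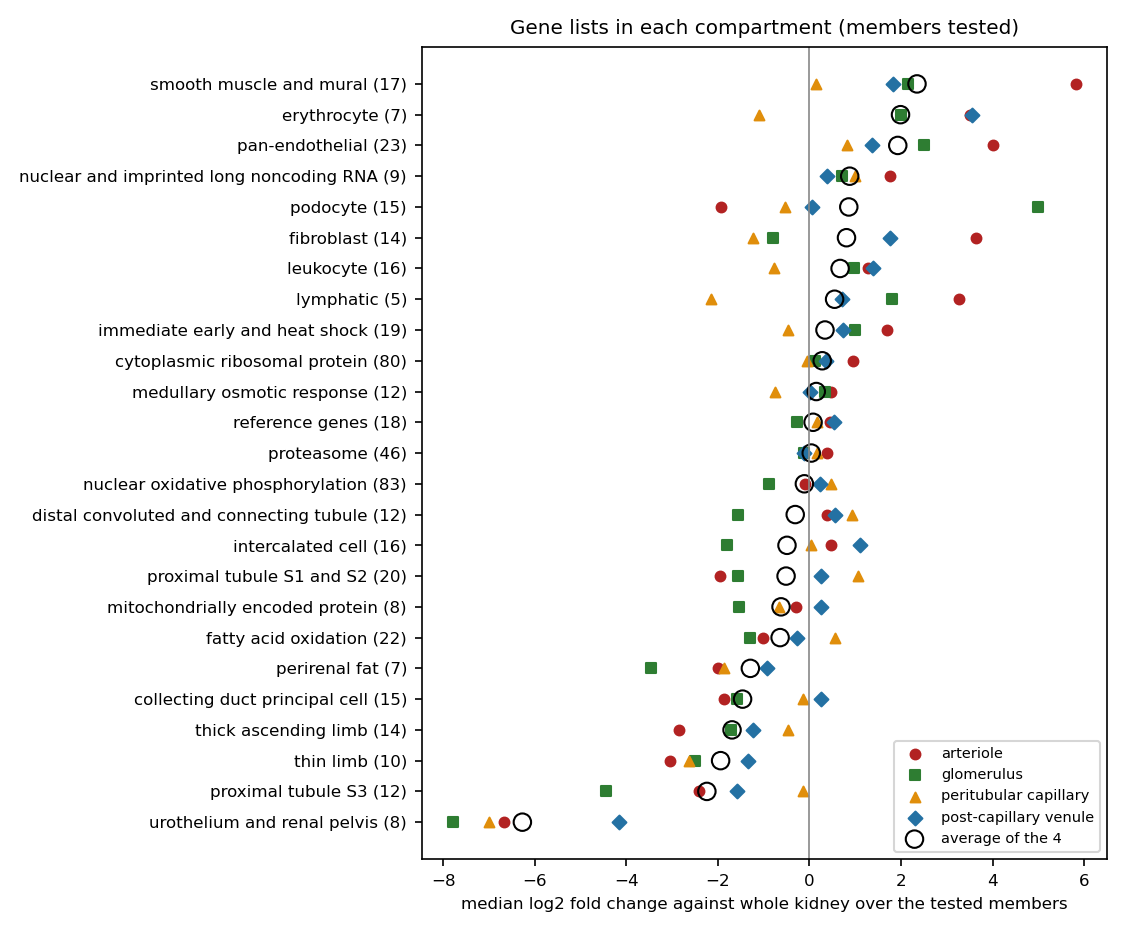
Median log2 fold change against whole kidney over the tested members of each gene list (number in brackets), for each compartment as a coloured symbol and for the average of the 4 as an open circle. Urothelium (average -6.27), S3, thin limb, thick ascending limb and perirenal fat lie left of 0 in all 4 compartments, whereas the lists from smooth muscle to leukocyte spread widely around their averages.

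Lists for general cell functions are given beside the 1.17% higher and 3.07% lower genes over all tested. Of 80 cytoplasmic ribosomal protein genes 1 was higher (Rpl37a, 1.03, median 0.28), of 46 proteasome genes 1 (Psme1, an interferon induced activator subunit, 1.56, FDR 0.0471, median 0.04), and of 83 nuclear genes of oxidative phosphorylation none was called (median -0.11). The calls of Rpl37a and Psme1 were lost without any 1 whole kidney library (FDR up to 0.0807 and 0.19), and that of Psme1 also without glomerulus 98 or 100 or venule 96 or 98 (up to 0.0567). Of 22 fatty acid oxidation genes, Acadm, a dehydrogenase of medium chain fatty acids, was lower (-1.39, FDR 0.0288, lost without any 1 whole kidney library, FDR up to 0.208; median -0.64). Among 18 reference genes, Actb (1.46, FDR 3.99e-06) and B2m (1.18, FDR 0.0178, lost without any 1 whole kidney library, FDR up to 0.0946) were higher, while Gapdh was at 0.21 (FDR 0.933; list median 0.08). The immediate early and heat shock list (19 tested, median 0.34), the nuclear long noncoding list (9 tested, median 0.88), the lymphatic list (5 tested, median 0.55) and both mitochondrial rRNA genes (median 0.40) had no call. Scaled by library totals alone, the median over all genes moved from -0.02 to -0.31, and the medians of the ribosomal protein (-0.04), immediate early (-0.02), osmotic (-0.19), reference (-0.17) and proteasome (-0.28) lists became negative.

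Mitochondrial RNA took unequal shares of the counts. The mitochondrially encoded protein list took 6.38% ± 0.205 of captured counts against 11.6% ± 0.460 in whole kidney, below it in 15 of 16 libraries (means per library number, SD, n = 4 each, exact permutation p 0.0286, adjusted 0.0348). It was 5.36% ± 0.967 in arterioles, 4.23% ± 0.493 in glomeruli, 5.43% ± 1.03 in capillaries and 10.5% ± 0.835 in venules. None of its 8 tested genes was called (median -0.62). The mitochondrial rRNA list took 2.66% ± 0.190 against 1.99% ± 0.0505, with 8 libraries above and 8 below all of whole kidney: capillaries held 4.48% ± 0.517, venules 3.13% ± 0.275, arterioles 1.68% ± 0.269 and glomeruli 1.34% ± 0.190.

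A few RNA classes were shifted the same way in most captures. Nuclear-encoded rRNA took 0.0608% ± 0.0228 of counts against 0.0138% ± 0.00672, above whole kidney in 14 of 16 libraries. Small noncoding RNA took 0.127% ± 0.0279 against 0.0529% ± 0.00987 (15 of 16 above), pseudogenes 0.224% ± 0.0197 against 0.132% ± 0.0087 and loci of the annotation class still to be experimentally tested 0.346% ± 0.0204 against 0.158% ± 0.0270 (16 of 16 above in both). Long noncoding RNA took 6.22% ± 1.63 against 10.4% ± 1.86 (13 of 16 below). Each of these 5 shares of counts gave an exact permutation p of 0.0286 (means per library number, SD, n = 4 each, adjusted 0.0348). Most of the 50 measures gave this same smallest p, so it does not single out these classes. Mitochondrial rRNA gave it with 8 libraries above and 8 below all of whole kidney. Of 705 long noncoding genes tested 80 (11.3%) were lower and 0 higher, against 3.07% lower and 1.17% higher over all genes. Their median whole kidney level was 2.71 CPM against 13.4 over all genes tested, so RNA class and level cannot be told apart in these calls. The filter on low counts also admits a sparse gene through the group where it is high. The share and direction of these calls are therefore not read as a result about the class. The 5.8S rRNA gene ENSMUSG00000065922, of which near-identical copies exist, was called with nearly equal compartment values, 2.30, 2.40, 2.30 and 2.74 (average 2.43 ± 0.47, FDR 0.00113; among compartments FDR 0.872). It ran from 186 to 1129 CPM against 79.4, 197, 59.0 and 113 in whole kidney, so that 15 of 16 libraries lay above. The counts of this gene are part of the nuclear-encoded rRNA share above, so the 2 results are not independent.

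Detection fell with the level of a gene. Averaged over the compartments per library number, genes with at least 1 count numbered 12670 ± 326 in captures against 19290 ± 922 in whole kidney (SD, n = 4 each). Single captured libraries ran from 11339 to 14164 and whole kidney libraries from 18272 to 20474. Of 7094 genes with at least 10 CPM in all 4 whole kidney libraries, a captured library listed between 17 and 288 at 0 (median 64.5), and between 56 and 698 once all libraries were thinned to the smallest total. Among genes at 1 to 3 CPM in pooled whole kidney, a capture listed 42.4% to 69.4% at 0 (median 57.1%) although that level would give 14 reads in a captured library of mean depth. At 3 to 10 CPM the median was 25.4%, at 10 to 30 CPM 4.47% and at 30 to 100 CPM 0.163%. The bins were set on the whole kidney libraries, whose own zeros are few for that reason. Thinned to the smallest total, the medians were 65.3%, 33.3%, 7.54% and 0.521% in the same order of levels. Such zeros differed between libraries: of 2352 genes at 1 to 3 CPM, 61 (2.59%) were at 0 in all 16.

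**Figure D5:**
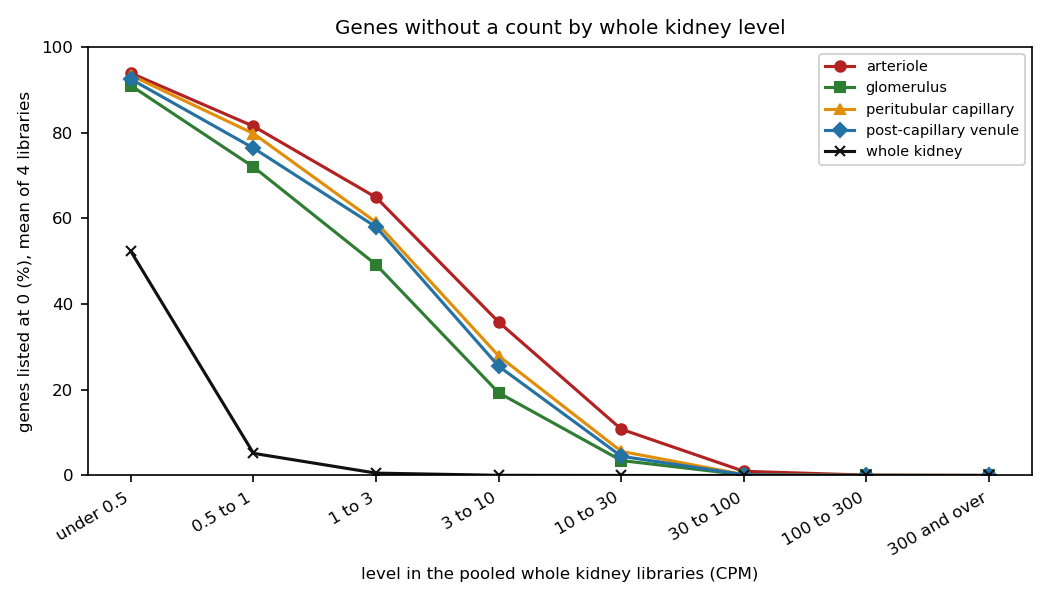
Percentage of genes listed at 0, as the mean of the 4 libraries of a group, against the level of the gene in the pooled whole kidney libraries in CPM. All 4 compartments run far above whole kidney up to about 10 CPM, with arterioles highest and glomeruli lowest, and all groups lie at or near 0 from 100 CPM.

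Lower genes often had their captured counts in single libraries. For 292 of the 416 lower genes with any captured count (70.2%), 1 of the 16 libraries held over 50% of the summed CPM, and for 181 (43.5%) over 80%. Over all tested genes with counts these shares were 19.2% and 4.27%. Among genes at 1 to 3 CPM in whole kidney, near the median of 2.88 CPM of the lower genes, they were 60.6% and 19.3%. Of the 92 lower genes with a whole kidney mean of at least 10 CPM, 22.8% had over 50% in 1 library. The filter on low counts admits a sparse gene through the group where it is high, so no share of lower calls by level is given. Of the 161 higher genes, 2 (1.24%) had over 50% in 1 library. The dominant library was a glomerulus or venule for the largest numbers of genes (35 in glomerulus 98, 34 in venule 93, 33 in venule 98) and an arteriole for the fewest (4 in arteriole 98).

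The spread between libraries of a group was far wider in captures. The common biological coefficient of variation, edgeR's estimate of relative spread, was 1.73 in arterioles, 1.24 in glomeruli, 1.49 in capillaries and 1.42 in venules against 0.212 in whole kidney, so the single fit used for the tests describes groups of unequal spread. Long transcripts stood slightly higher in the captures: coding genes with transcripts under 2674 bases had a median average log2 fold change of -0.18, those up to 4332 bases -0.04, and longer ones 0.29. Among genes at 10 to 100 CPM in whole kidney the medians were 0.02, 0.17 and 0.44. Of the 13 alike higher genes, 9 fell in the longest class, which held 1.62% higher calls against 1.33% and 0.892% in the others. By GC content the medians were -0.07, -0.01 and 0.19 from low to high. The part of preparation, length or GC content in any call above was not tested.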

How the data were processed

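The data are 3′ RNA-seq libraries (QuantSeq FWD, single-end reads) of 16 microdissected samples and 4 whole kidney samples. According to the study's methods, reads were trimmed with bbduk, aligned with STAR 2.7 to GRCm38.p6 and counted per gene with HTSeq 0.13. The processing notes of the submitters also name GRCm39 and featureCounts, with no role given. For the strand setting and for molecular identifiers nothing is stated in the sources used here, and overlapping genes cannot be separated by strand. The authors deposited raw counts, with no normalization, in 1 table of 34255 genes and 168 value columns, of which 20 were used and 148 were not. Columns were assigned to groups by their header. The number in each column name (93, 96, 98 or 100) names a library here, and no source says that it marks a mouse. The column of capillary 96 carries extra letters of unstated meaning. No pair of libraries was identical, 3 lines without a gene name were dropped, and 34185 genes (99.8%) matched GENCODE M21, the source of coordinates.

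The counts were fitted with edgeR 4.0.16 in R 4.3.3 (TMM, filterByExpr by group, quasi-likelihood F test in its earlier form, 5 groups fitted together), which left 13813 genes. The average contrast, the alike rule and the test among compartments are as given in the report. FDR stands for Benjamini-Hochberg adjustment over all 13813 genes. CPM uses TMM-scaled totals. SE is the log2 fold change divided by the root of F. Library measures were compared by an exact two-sided permutation test of 4 means over the compartments, 1 per library number, against 4 whole kidney libraries (SciPy 1.17.1). The fit was tested on simulated data with 200 changed genes. The lists (27) carry counts and medians and no set test; the replication-dependent histone pattern matched no symbol.

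The comparison, the gene lists and the rule for names were chosen with earlier results of these data known. The rule names, among alike genes with at least 10 CPM in all libraries of the higher side, the 12 most extreme and the 6 with the smallest range in each direction, up to 4 members per list by p and up to 2 called against the list's median, and the 8 genes outside the lists with the smallest p in each direction. Predicted genes and pseudogenes were counted and passed over. Genes of the report outside that rule were named after their values were seen: Cck, Cidea, Flt1, Timp3, Cldn5, Cdh5, Gapdh, Upk3a, Fxyd3, 9630013D21Rik, ENSMUSG00000065922 and the genes that were not tested. Alternatives were other normalizations, filters, tools (DESeq2 1.42.0, limma 3.58.1), thinning, a replicate block, and leaving out compartments and libraries.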

Additional observations from a re-analysis of the deposited data

Results flagged for a closer look

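Within the groups of 4 libraries, 29 of 245 sets of values had a highest or lowest library far from its neighbours by Dixon's test. Chance gives about 1 in 20 only for independent, normally distributed values. These CPM and percentages can be skewed and the sets share genes, so the 29 have no such baseline. Among totals these were glomerulus 98 (9792824 counts) and venule 98 (4639090 counts). Capillary 100 listed 226 of the 7094 well expressed whole kidney genes at 0. As a percentage of counts, the urothelium list stood out in arteriole 93 (0.0204%, where Krt5 lay), capillary 98 (0.00589%) and venule 98 (0.0118%), the thin limb list in capillary 98 (0.0900%) and venule 96 (0.0355%), and the lymphatic list in capillary 98 (0.00235%) and whole kidney 96 (0.00395%). Further such values were the distal convoluted and connecting tubule list in venule 93 (1.17%), mitochondrial rRNA in arteriole 93 (1.28%), nuclear oxidative phosphorylation in whole kidney 93 (4.57%) and the proteasome list in arteriole 96 (0.515%) and venule 98 (0.424%).

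Among the alike genes, single libraries stood apart for Cx3cl1 (635 CPM in arteriole 96 and 96.9 in glomerulus 100), Rnf10 (197 in glomerulus 100 and 242 in venule 100), Septin11 (835 in arteriole 96) and Coro1c (82.5 in whole kidney 93). Among the lower ones they were Cyp7b1 (16.5 CPM in glomerulus 98 and 9.51 in venule 100), Slc22a13 (12.5 in glomerulus 93 and 99.4 in whole kidney 96), Mettl7a2 (52.0 in arteriole 98), Slc12a1 (84.8 in arteriole 100), Irx1 (8.53 in arteriole 93) and Aqp7 (1.66 in glomerulus 96).

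Of the alike genes named by the rule, 10 differed in size among the 4 compartments by edgeR's quasi-likelihood test: Palld (FDR 6.66e-07), Coro1c (4.42e-06), Col4a2 (0.00031), Cyp7b1 (0.00445), Adam15 (0.00561), Tmbim1 (0.0103), Zbtb4 (0.019), Cx3cl1 (0.026), Septin11 (0.0279) and Slc12a1 (0.0282).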

How the results depend on the processing

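Counts below are in the order higher, lower, alike higher and alike lower, 161, 424, 13 and 94 as reported, and where fewer are given the others were within 1.5 times. The cause of these shifts was not tested. DESeq2 size factors in edgeR changed all 4 counts by less than that, while library totals alone gave 3 alike higher. Without a filter there were 284 higher, 3927 lower and 755 alike lower genes, and with a minimum of 10 CPM 79 lower and 8 alike lower. The edgeR 4 form gave 267 lower. DESeq2 gave 282 higher, 20 alike higher and 55 alike lower, and limma-voom with weights by group, which lets the groups differ in spread, 552 higher and 5490 lower. Without a fold threshold 26 were alike higher. Thinning to the smallest total gave 6 alike higher and 57 alike lower. A fit of 16 against 4 without compartments called 2 and 59, and sums per library number, 4 against 4, called 1307 higher (neither gives alike counts). Without arterioles there were 107 higher and 226 lower, without glomeruli 229 alike lower, without capillaries 418, 641, 114 and 231, and without venules 31 alike higher and 193 alike lower. With each library left out in turn and the filter run again, the counts ran from 71 to 199 higher, 240 to 670 lower, 4 to 20 alike higher and 95 to 194 alike lower. The low ends came from leaving out a whole kidney library, and the filter then admitted more genes in every case. On the same 13813 genes, an alternative chosen after seeing the data, the counts without whole kidney 93, 96, 98 and 100 were 68, 81, 74 and 75 higher and 233, 241, 223 and 225 lower, with 7, 9, 8 and 7 alike higher, and no microdissected library moved any count by over 1.5 times. Of the 77 called genes named by the rule, 75 kept their call under the replicate block, 76 without a filter, 67 in DESeq2, 74 in limma-voom and 11 in the fit without compartments. With a minimum of 10 CPM 56 kept it. Without whole kidney 93, 96, 98 and 100, with the filter run again, 56, 59, 56 and 55 kept it. Of the list shares, the S1 and S2 list turned from lower to higher by 0.106 percentage points without arterioles and 0.0434 without glomeruli, and the distal convoluted and connecting tubule list turned to -0.0116 without venules. After thinning, genes detected and the share of the 100 highest genes kept their direction, and well expressed whole kidney genes at 0 in a capture rose from between 17 and 288 to between 56 and 698.

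With the library number as a replicate block, 157 genes were higher, 706 lower, 12 alike higher and 94 alike lower. The study's methods tie compartments to mice but no source says that the numbers mark mice, and the main fit did not pair the libraries. Deviations from the group means correlated above 0.1 in none of the 40 same-number pairs of different groups (-0.0526 to 0.0714, median 0.00833). None of the 120 other-number pairs passed 0.1 either (-0.104 to 0.05, median -0.00316), so this cut cannot decide whether the numbers pair the libraries. Of the 20 libraries, 12 correlated best with their own number, although only 40 pairs shared a number against 120 that did not. Whether the numbers pair the libraries was not tested.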
